A study of Rattus norvegicus with 20 samples.

Results

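The miRNAs described here are the arms of 4 stems, miR-871, miR-878, miR-880 and miR-881, which lie side by side on the rat X chromosome. They were chosen by name: every rat miRNA on the array whose name holds one of these stems, with or without an arm, was taken, which gave 7 of the 677 miRNAs on the array. They are miR-871-3p, miR-871-5p, miR-878, miR-880-3p, miR-880-5p, miR-881-3p and miR-881-5p. The study profiled miRNAs in sorted germ cells of Sprague-Dawley male rats on 20 one-colour Agilent arrays, 5 in each of 4 groups. The groups are round spermatids of cyclophosphamide rats (CPA), round spermatids of saline rats (SAL), pachytene spermatocytes of cyclophosphamide rats and pachytene spermatocytes of saline rats. Cyclophosphamide, an alkylating drug used against cancer, was given by gavage at 6 mg/kg on 6 days a week for 4 weeks, and saline rats were gavaged with saline. The ages of the rats were not given in the sources used here.

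A miRNA is cut from a hairpin, and either side of the hairpin, the 5p or the 3p arm, can be kept as the mature miRNA that guides the repression of target messages. The seed, bases 2 to 8 of the mature miRNA, takes the largest share in target recognition. The 4 stems belong to the miR-506 family, a set of fast-evolving X-linked miRNA genes that are expressed mainly in the testis. In male meiosis the X and Y chromosomes are silenced at the pachytene stage, and work in mouse has reported that many miRNAs of this region are present in pachytene spermatocytes all the same. Round spermatids are haploid and arise from them once meiosis is complete. The comparisons ask how the 4 stems and their arms differ between the 2 cell types, and whether cyclophosphamide changed them in either one.

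The RefSeq table for the rat build GRCr8 holds the mature sequence of 6 of the 7 members. They are printed 5′ to 3′ because the arms and stems are compared below, with the seed in capitals.
rno-miR-871-3p: uGACUGGCaccauacuggauaa
rno-miR-871-5p: uAUUCAGAuuggugccggucacau
rno-miR-878: gCAUGACAccauacuggguaga
rno-miR-880-3p: uACUCCAUucauucugaguaga
rno-miR-880-5p: uACUCAGAuugguaugaguca
rno-miR-881-3p: uAACUGUGgcauuucugaauag
The 6 sequences hold 6 different seeds. Of the 693 mature rat miRNAs in the table, 5 of the 6 shared their seed with no other, and miR-871-5p shared its seed with 1, miR-743a-5p, a miRNA of the same X-linked region. Some arms share longer runs of bases, which reach into the seed. The longest run shared by any pair was 11 bases, caccauacugg, at bases 8 to 18 of miR-871-3p and 7 to 17 of miR-878. miR-871-5p and miR-880-5p shared 10 bases, ucagauuggu, at bases 4 to 13 of both.

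In RefSeq GRCr8 the 4 hairpins lie on the minus strand of chromosome X within 5876 bases, in the order Mir871, Mir881, Mir878 and Mir880 in the direction of transcription. The gaps between neighbours were 3800, 372 and 1395 bases, and no other miRNA hairpin of the table fell between them. The Mir871 hairpin lies at chrX:150478579-150478655, Mir881 at chrX:150474702-150474778, Mir878 at chrX:150474253-150474329 and Mir880 at chrX:150472780-150472857. Compared base by base without gaps, the 77-base hairpins Mir871 and Mir878 were identical at 68.8% of positions, Mir871 and Mir881 at 64.9%, and Mir881 and Mir878 at 59.7%. The hairpins of the 2 stems for which only 1 of 2 arms gave signal on the arrays are shown with their arms in capitals, the 5p arm to the left.
Mir871: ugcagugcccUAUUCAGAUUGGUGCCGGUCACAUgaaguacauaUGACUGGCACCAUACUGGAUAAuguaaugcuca
Mir880: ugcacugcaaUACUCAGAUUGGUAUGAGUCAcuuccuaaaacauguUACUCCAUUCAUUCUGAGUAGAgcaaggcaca

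All values are processed spot intensities, scaled between arrays and taken to log2, on which a difference of 1 is a factor of 2. Signals under a floor of 3.58, the typical dimmest signal still well above background, were set to that floor. Each member has 2 probes of 10 spots each on every array, and the brighter probe stands for it. Levels of different members are not set against each other, since each probe has its own response; their changes are. Across arrays, 18.9% to 31.4% of spots were well above background and 181 to 281 miRNAs were detected, with the fewest on the cyclophosphamide round spermatid array of rat 14. Pairs of arrays of the same group correlated at 0.958 to 0.996 over the tested miRNAs. The arrays lay on 3 slides. Slides 1 and 2 held all groups. Slide 3, scanned on another day, held 4 round spermatid arrays and no pachytene array.

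The germ cell miRNAs miR-34b-5p, miR-34c-5p and miR-449a-5p were detected on all 20 arrays and made up 29.0% to 46.4% of an array's summed signal. All 5 markers of smooth muscle, peritubular and mesenchymal cells were detected on all arrays of every group, and their summed signal moved with the cell type. It was 1866 to 3673 in CPA and 2270 to 3461 in SAL round spermatids, against 449.7 to 833.2 in CPA and 579.0 to 1198 in SAL pachytene spermatocytes. The brightest marker weighs most in this sum. In CPA pachytene spermatocytes miR-143-3p averaged 9.17 on the log2 scale. There miR-145-5p averaged 5.88, miR-199a-3p 4.54, miR-214-3p 4.16 and miR-199a-5p 3.70. The sum therefore does not show that each of the 5 markers moved. The 2 markers of Sertoli cells and gonadal soma ran the other way, with a summed signal of 26.9 to 39.0 in CPA and 19.1 to 43.7 in SAL round spermatids, against 85.9 to 116.9 in CPA and 88.9 to 109.0 in SAL pachytene spermatocytes; miR-202-3p was detected on all 20 arrays and miR-202-5p on 8. The 6 blood markers summed to 150.4 to 209.4 in CPA and 157.5 to 218.5 in SAL round spermatids, against 68.5 to 114.3 in CPA and 89.4 to 116.5 in SAL pachytene spermatocytes. For these 3 lists the ranges of the cell types did not overlap. The part of these cells, or of their RNA, in the stage differences was not tested. In such bulk samples fewer cells of a type and less RNA per cell cannot be told apart. Of the blood markers, miR-223-3p and miR-142-3p were detected on all 20 arrays, miR-150-5p on 19 and miR-142-5p on 12, while the red cell miRNAs miR-451-5p and miR-144-3p were detected on 1 and on none. The summed signal of the spermatogonial markers overlapped between the cell types in CPA. In SAL it was 535.1 to 612.5 in round spermatids against 688.9 to 774.6 in pachytene spermatocytes. The endothelial sum overlapped between the cell types in SAL. In CPA it was 47.2 to 76.3 in round spermatids against 81.8 to 192.7 in pachytene spermatocytes. The muscle miRNAs miR-1-3p and miR-133a-3p were detected on 2 arrays each.

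Both stems with an annotated 5p and 3p sequence gave signal from the 3p arm alone. miR-871-3p and miR-880-3p were detected on all 20 arrays, with all 50 spots of each group well above background. miR-871-5p and miR-880-5p were detected on none of the 20. Of the 50 spots per group of its brighter probe, miR-871-5p had 0 well above background in every group, and miR-880-5p had 0 in CPA and 1 in SAL round spermatids and 1 in CPA and 0 in SAL pachytene spermatocytes. Their background-subtracted linear signal averaged -0.35 ± 1.34 for miR-871-5p and -0.27 ± 0.90 for miR-880-5p in CPA round spermatids (SD, n = 5 each), and every array of all 4 groups was at the floor. Both were therefore not well above background, and neither was tested.

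The stem miR-881 differed from these in that both arms were detected. miR-881-3p was detected on 4 of 5 CPA and 5 of 5 SAL round spermatid arrays and on all pachytene arrays. miR-881-5p was detected on 4 of 5 CPA and 4 of 5 SAL round spermatid arrays, and on all pachytene arrays. Some of these detected values were still at the floor. In all, 2 of its 5 CPA and 4 of its 5 SAL round spermatid values were there. The CPA round spermatid array of rat 14 lacked both arms. For miR-881-3p, 54% of spots in CPA and 60% in SAL round spermatids were well above background, against 98% in CPA and 88% in SAL pachytene spermatocytes. For miR-881-5p the shares were 34% and 30% in CPA and SAL round spermatids, against 92% and 76% in CPA and SAL pachytene spermatocytes. These shares also depend on the array. On the linear scale the dimmest signal still well above background was 9.93 to 23.3 on round spermatid arrays and 4.87 to 14.5 on pachytene arrays. The mean linear signal of miR-881-5p was 13.09 in CPA round spermatids against 13.38 in CPA pachytene spermatocytes, and 11.31 against 13.26 in SAL. miR-878, which the array lists with no arm, was detected on all arrays, with 90% of spots in CPA and 96% in SAL round spermatids well above background, against 100% in CPA and 98% in SAL pachytene spermatocytes.

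**Figure D1:**
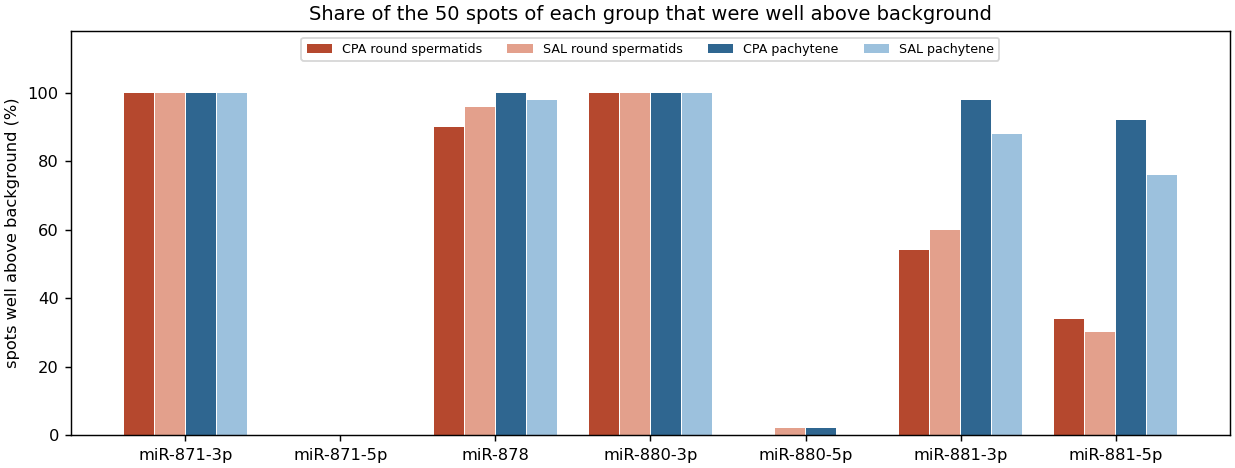
Percentage of the 50 spots per group (10 spots on each of 5 arrays, brighter probe) that were well above background, for the 7 members in CPA and SAL round spermatids and in CPA and SAL pachytene spermatocytes. miR-871-3p and miR-880-3p stand at 100% in every group, their 5p arms at 0% to 2%, and both arms of miR-881 lower in round spermatids than in pachytene spermatocytes. The dimmest signal still well above background differs by array, so the shares depend on the array as well.

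The spots of a probe on 1 array spread by a median of 5.54% (coefficient of variation) for miR-880-3p and 5.87% for miR-871-3p, by 11.1% for miR-878, and by 14.5% and 16.2% for miR-881-3p and miR-881-5p. Of the 7 members, 5 carried the scanner software's detection flag on each array of 1 group or more and were tested, as 217 of the 677 miRNAs were.

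Between round spermatids and pachytene spermatocytes most of the tested arms differed by less than the test could call. In cyclophosphamide rats 1 of the 5 tested members, miR-881-3p, passed the test and was lower in round spermatids, by 0.35 on the log2 scale, and none of the 5 passed in saline rats. Over all 217 tested miRNAs 114, or 52.5%, were called in cyclophosphamide rats, 65 higher and 49 lower in round spermatids. In saline rats 103, or 47.5%, were called, 56 higher and 47 lower. The members' shares of 1 in 5 and 0 in 5 were below these, on few members. Their median difference was -0.14 in cyclophosphamide and -0.23 in saline rats, against 0.06 and 0.02 over all tested miRNAs. The split of the called miRNAs depends on the scaling: 57.0% in cyclophosphamide and 54.4% in saline rats were higher, but 34.2% and 32.2% with the scaling taken over all spots, 46.4% and 43.4% with quantile normalization and 30.1% and 23.6% with no scaling. Tests are limma's moderated test, with p-values adjusted over the 217 miRNAs by Benjamini and Hochberg and called under 0.05.

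miR-881-3p stood at 3.58 on rat 14, which was at the floor, 3.90 on rat 15, 3.63 on rat 16, 4.13 on rat 25 and 3.94 on rat 26 in CPA round spermatids. In CPA pachytene spermatocytes it stood at 3.88 on rat 7, 3.90 on rat 15, 4.34 on the earlier and 4.44 on the later of 2 rats numbered 16, and 4.38 on rat 29. The groups overlapped, and the 3 highest pachytene values all came from slide 2. The difference was -0.35 ± 0.14 (SE, 95% interval -0.64 to -0.06, limma adjusted p = 0.0398), which is 0.784 times the pachytene signal. In SAL round spermatids miR-881-3p stood at 3.79, 4.01, 3.86, 3.82 and 3.83 on rats 15, 16, 17, 25 and 28, against 4.00, 3.96, 4.08, 4.50 and 4.42 on rats 13, 16, 25, 26 and 28 in SAL pachytene spermatocytes. Here the groups overlapped by 2 arrays, the pachytene arrays of rats 13 and 16 lying below the round spermatid array of rat 16. The difference of -0.33 ± 0.14 (95% interval -0.62 to -0.04) missed the threshold with a limma adjusted p of 0.0561. It was below 0 in both treatments under each scaling tried, but with normexp background correction it was -0.16 in cyclophosphamide and 0.50 in saline rats, where the median of all tested miRNAs was itself -0.05 and 0.44.

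The call for miR-881-3p in cyclophosphamide rats rested on few arrays. It was lost when any 1 of 6 arrays was left out. Without the earlier rat 16, the later rat 16 or rat 29 among the pachytene arrays the difference was -0.31, -0.29 and -0.30, with limma adjusted p of 0.0952, 0.110 and 0.101. Without rat 14, 15 or 16 among the round spermatid arrays it was -0.29, -0.37 and -0.30, with limma adjusted p of 0.102, 0.0542 and 0.0976. In saline rats the opposite happened: the difference passed, with limma adjusted p between 0.0333 and 0.0484, without CPA pachytene rat 7 or 15, SAL pachytene rat 13 or 16, CPA round spermatid rat 25 or SAL round spermatid rat 16. Leaving out a CPA array does not alter the saline difference itself. There the call moved only through the shared spread and the adjustment. The other probe of miR-881-3p was under the floor in every group, with a mean linear signal of 3.04 in CPA and 3.61 in SAL round spermatids against 6.24 in CPA and 6.07 in SAL pachytene spermatocytes, so it gave no fold.

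Its sister arm miR-881-5p lay at or near the floor in every group. It stood at 3.58, 3.90, 3.64, 3.86 and 3.58 on rats 14, 15, 16, 25 and 26 in CPA round spermatids, and at 3.77 on rat 15 and at the floor on the other 4 in SAL round spermatids. In CPA pachytene spermatocytes it stood between 3.68 and 3.84, and in SAL pachytene spermatocytes at 4.00 on rat 16 and between 3.63 and 3.69 on the others. The stage difference was -0.03 ± 0.08 in cyclophosphamide rats (limma adjusted p = 0.805) and -0.10 ± 0.08 in saline rats (limma adjusted p = 0.329). With 4 of the 5 SAL round spermatid values at the floor, the saline difference understates any fall. In CPA round spermatids 2 of 5 values were at the floor. There the mean linear signal before the floor was 13.09, against 13.38 in CPA pachytene spermatocytes. The 5p arm met the detection filter only through the pachytene groups, where it is the higher, so its stage values are a description. Feature Extraction's own total signal, which sums the probes of a miRNA, gave -0.79 and -1.20 for the 5p arm in cyclophosphamide and saline rats, and -0.94 and -0.56 for the 3p arm (limma adjusted p = 0.0301 and 0.186).

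miR-878 stood at 4.59, 4.61, 4.16, 4.43 and 4.24 on rats 14, 15, 16, 25 and 26 in CPA round spermatids, against 4.44, 4.28, 4.92, 4.91 and 5.10 on rat 7, rat 15, the earlier and the later rat 16 and rat 29 in CPA pachytene spermatocytes. The pachytene values fell into 2 sets by slide, rats 7 and 15 on slide 1 and the other 3 on slide 2. In SAL round spermatids it stood at 4.27, 4.64, 4.13, 4.25 and 4.09 on rats 15, 16, 17, 25 and 28, against 4.31, 4.07, 4.74, 4.84 and 4.64 on rats 13, 16, 25, 26 and 28 in SAL pachytene spermatocytes. The groups overlapped in both treatments. The difference was -0.33 ± 0.17 in cyclophosphamide rats (limma adjusted p = 0.119) and -0.24 ± 0.17 in saline rats (limma adjusted p = 0.259). Without CPA pachytene rat 15 the cyclophosphamide difference was -0.44 and passed, with a limma adjusted p of 0.0365. The other probe of miR-878 was under the floor in every group, so it gave no fold. Its mean linear signal was 7.08 in CPA and 5.29 in SAL round spermatids, against 7.30 in CPA and 5.77 in SAL pachytene spermatocytes.

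miR-871-3p stood at 6.16, 6.27, 6.33, 6.06 and 6.42 on rats 14, 15, 16, 25 and 26 in CPA round spermatids, against 5.91 on rat 7 and 6.43, 6.51, 6.58 and 6.51 on rat 15, the earlier and the later rat 16 and rat 29 in CPA pachytene spermatocytes. Rat 7 lay under all round spermatid values and the other 4 lay above them. In SAL round spermatids the values were 6.42, 6.36, 6.36, 6.28 and 6.03 on rats 15, 16, 17, 25 and 28, against 6.53, 6.47, 6.75, 6.36 and 6.47 on rats 13, 16, 25, 26 and 28 in SAL pachytene spermatocytes. The difference was -0.14 ± 0.12 in cyclophosphamide rats (limma adjusted p = 0.312) and -0.23 ± 0.12 in saline rats (limma adjusted p = 0.117), and neither passed. Without rat 7 it was -0.26 in cyclophosphamide rats and passed (limma adjusted p = 0.0299), and the saline difference, unaltered at -0.23, passed as well through the smaller shared spread (limma adjusted p = 0.0434). Its second probe gave -0.17 and -0.20 in cyclophosphamide and saline rats.

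miR-880-3p varied little among the pachytene arrays and more among the round spermatid arrays. It stood at 7.99, 8.29, 7.97, 7.82 and 8.11 on rats 14, 15, 16, 25 and 26 in CPA round spermatids, against 7.89 to 8.02 in CPA pachytene spermatocytes. In SAL round spermatids it stood at 8.09, 7.14, 8.08, 7.59 and 7.91 on rats 15, 16, 17, 25 and 28, against 7.86 to 8.07 in SAL pachytene spermatocytes. The SAL round spermatid array of rat 16 was the lowest of all 20 for this miRNA. It also had few miRNAs detected, 193, with 20.8% of spots well above background. Only the CPA round spermatid array of rat 14 had fewer, at 181 and 18.9%. Whether this bears on the value was not tested. The difference was 0.07 ± 0.14 in cyclophosphamide rats (limma adjusted p = 0.715) and -0.19 ± 0.14 in saline rats (limma adjusted p = 0.282). Without that array the saline difference was -0.04.

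**Figure D2:**
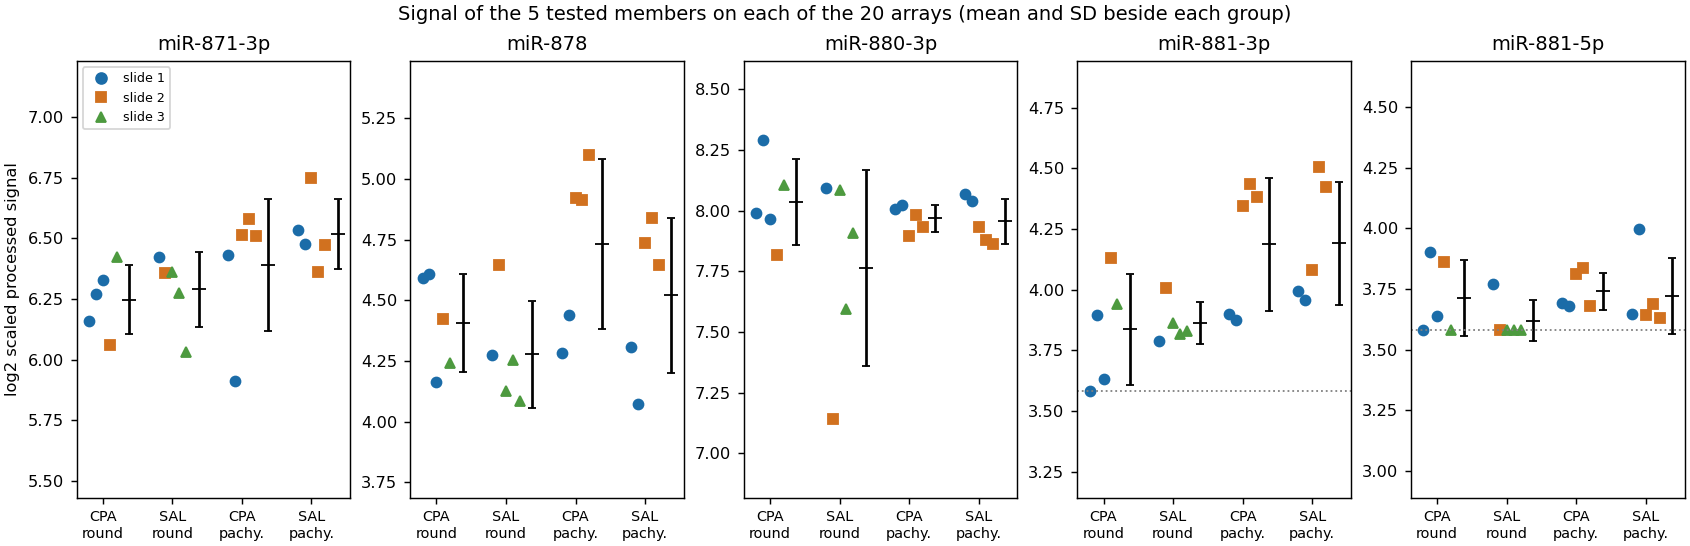
Log2 scaled signal of the 5 tested members on each array, by group (CPA and SAL round spermatids, CPA and SAL pachytene spermatocytes), with the slide as marker and colour; the bar beside each group is its mean with SD (n = 5) and the dotted line the floor at 3.58. For miR-878 and miR-881-3p the slide 2 pachytene arrays lie above the slide 1 pachytene arrays of the same group, and for miR-880-3p 1 SAL round spermatid array stands at 7.14.

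The level of a member could thus be ordered over the 4 groups only loosely. miR-881-3p averaged 3.84 ± 0.23 in CPA and 3.86 ± 0.09 in SAL round spermatids, against 4.19 ± 0.28 in CPA and 4.19 ± 0.25 in SAL pachytene spermatocytes (SD, n = 5 each). Within a cell type the 2 treatments differed by far less than their spread. miR-878 averaged 4.41 ± 0.20 and 4.28 ± 0.22 in CPA and SAL round spermatids, against 4.73 ± 0.35 and 4.52 ± 0.32 in CPA and SAL pachytene spermatocytes, with overlapping ranges in each pair of groups. For miR-871-3p the means were 6.25 ± 0.14 and 6.29 ± 0.15 in CPA and SAL round spermatids, against 6.39 ± 0.27 and 6.52 ± 0.14 in CPA and SAL pachytene spermatocytes. For miR-880-3p they were 8.03 ± 0.18 and 7.76 ± 0.40 in CPA and SAL round spermatids, against 7.97 ± 0.05 and 7.96 ± 0.09 in CPA and SAL pachytene spermatocytes. miR-881-5p averaged 3.71 ± 0.16 and 3.62 ± 0.08 in CPA and SAL round spermatids, against 3.74 ± 0.08 and 3.72 ± 0.16 in CPA and SAL pachytene spermatocytes.

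The slide moved with several members. Among the 10 pachytene arrays, with treatment in the model, 52 of 217 miRNAs (24%) differed between slide 2 and slide 1, and 3 of the 5 members were among them. miR-878 was higher on slide 2 by 0.58 ± 0.07 (limma adjusted p = 0.00124) and miR-881-3p by 0.43 ± 0.08 (limma adjusted p = 0.00739), while miR-880-3p was lower on slide 2, with a difference of -0.12 ± 0.03 (limma adjusted p = 0.0107). miR-871-3p and miR-881-5p gave 0.19 ± 0.13 and -0.04 ± 0.08, with limma adjusted p of 0.331 and 0.839. For miR-878 and miR-881-3p the slide difference was larger than the stage difference in either treatment. Among round spermatid arrays, 19 of 217 miRNAs (8.76%) differed between slide 3 and slides 1 and 2, none of them a member. What sets the slides apart was not tested.

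With slide as a block, miR-881-3p remained lower in round spermatids by a smaller amount and passed in both treatments, at -0.22 in cyclophosphamide rats (limma adjusted p = 0.0317) and -0.28 in saline rats (limma adjusted p = 0.0248). miR-880-3p gave -0.06 and -0.34, the second with a limma adjusted p of 0.0497. miR-878 gave -0.14 and -0.02, miR-871-3p -0.11 and -0.21 and miR-881-5p -0.01 and -0.03 in cyclophosphamide and saline rats. Counts over all tested miRNAs were 121 and 109 with the block. For miR-878 the block thus brought the difference close to 0 in saline rats.

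Within slide 1, which held 3 CPA and 1 SAL round spermatid arrays against 2 CPA and 2 SAL pachytene arrays, miR-881-3p differed by -0.19 in both treatments, miR-878 by 0.09 and 0.08, miR-871-3p by 0.08 and -0.08, miR-880-3p by 0.07 and 0.04, and miR-881-5p by 0.02 and -0.05, in cyclophosphamide and saline rats. None of these passed. Within slide 2, with 1 CPA and 1 SAL round spermatid array against 3 CPA and 3 SAL pachytene arrays, miR-881-3p differed by -0.26 and -0.33, miR-871-3p by -0.48 and -0.17 and miR-881-5p by 0.09 and -0.07, and none passed. On that slide miR-878 differed by -0.55 in cyclophosphamide rats (limma adjusted p = 0.0125) and -0.10 in saline rats, and miR-880-3p by -0.12 in cyclophosphamide and -0.75 in saline rats (limma adjusted p = 0.000384). The lone round spermatid array of each treatment on slide 2, like the lone SAL one on slide 1, is assumed to vary like the other groups, and in saline rats it is rat 16, the low array for miR-880-3p. miR-881-3p was the 1 member whose stage difference was below 0 in both treatments in the pooled fit, with the block, within slide 1 and within slide 2. Without slide 3 its values were -0.38 and -0.29 and neither passed (limma adjusted p = 0.0613 and 0.251).

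**Figure D3:**
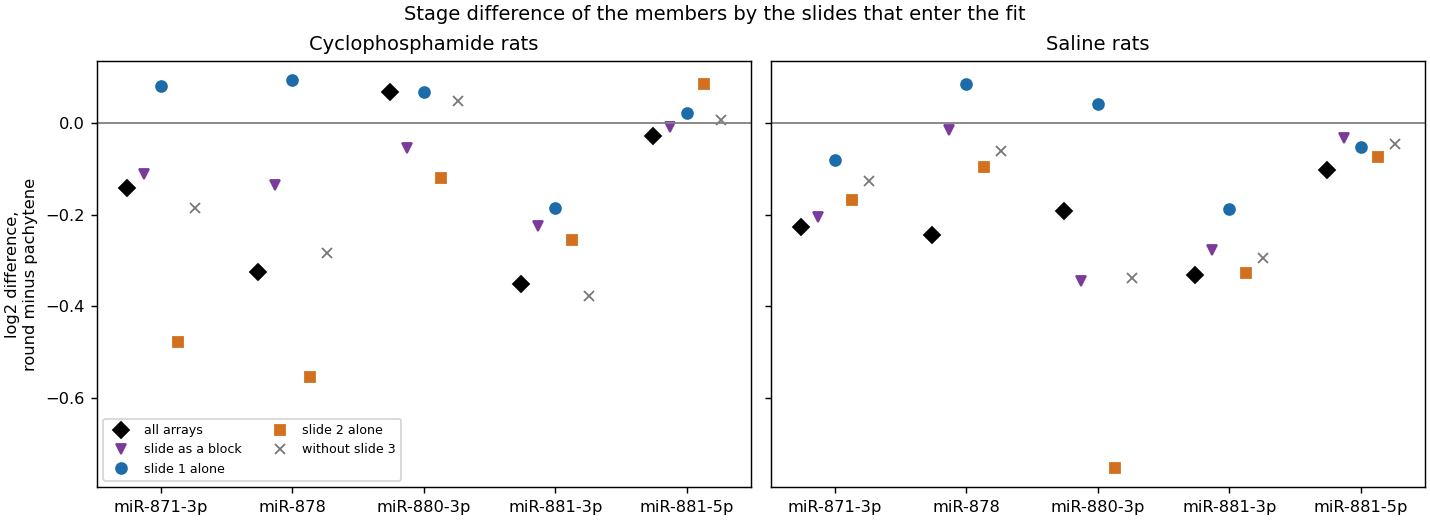
Log2 difference, round spermatids minus pachytene spermatocytes, of the 5 tested members in cyclophosphamide and saline rats, by the slides that enter the fit (all arrays, slide as a block, slide 1 alone, slide 2 alone, without slide 3). All 10 values of miR-881-3p lie below 0, while miR-878 spans -0.55 to 0.09 in cyclophosphamide rats.

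Arms and stems were then compared by their changes. The 3 members detected on all 20 arrays, miR-871-3p, miR-878 and miR-880-3p, give 3 pairs in 2 treatments, and for each the log2 difference between both members was compared between round spermatids and pachytene spermatocytes with an exact two-sided permutation test. The 2 arms of miR-881 could not enter, since values at the floor would set the result. None of the 6 comparisons passed after adjustment over the 6. In cyclophosphamide rats miR-878 minus miR-880-3p gave -0.39 (exact p = 0.111, adjusted p = 0.556), miR-871-3p minus miR-880-3p gave -0.21 (exact p = 0.222, adjusted p = 0.556) and miR-871-3p minus miR-878 gave 0.18 (exact p = 0.278, adjusted p = 0.556). In saline rats the 3 values were -0.05, -0.04 and 0.02, each with an adjusted exact p of 0.937. Without CPA pachytene rat 7, 1 of the 6, miR-871-3p minus miR-880-3p in cyclophosphamide rats, gave -0.34 and passed (adjusted exact p = 0.0476). The values do not show that the stems change alike, since each rests on 5 arrays against 5 and the spread of a pair reached 0.60. The smallest exact p that 5 arrays against 5 allow is 0.00794.

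The other X-linked miRNAs of the region are given beside the 4 stems by their counts and medians. By RefSeq GRCr8 the hairpins of miR-463, miR-471, miR-741, miR-742, miR-743b and miR-883 lie on the Mir880 side and that of miR-465 on the Mir871 side, all on the minus strand within 28126 bases, while miR-201 and miR-547 lie 1233128 and 1233426 bases away. These stems and miR-743a, whose hairpin was not placed here, have 18 tested arms. In each treatment 12 of the 18 were called lower and 2 called higher in round spermatids, or 77.8%. Over all 217 tested miRNAs 52.5% were called in cyclophosphamide and 47.5% in saline rats. The median of the 18 was -0.47 in cyclophosphamide and -0.50 in saline rats. All 4 arms of miR-201 and miR-547 were called lower, with a median of -1.75 and -1.70. Of the 6 tested arms of miR-463, miR-465, miR-471 and miR-741, 4 were called lower and none called higher, with a median of -0.52 and -0.54. Of the 8 arms of miR-742, miR-743a, miR-743b and miR-883, 4 were called lower and 2 called higher, with a median of -0.20 and -0.26. Of 11 tested arms of other X-linked stems, 4 and 3 were called lower and 1 and 1 called higher, in cyclophosphamide and saline rats. These are 45.5% and 36.4% of the 11.

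Among these neighbours the arms of a stem could part. miR-742-3p was lower in round spermatids, with a difference of -0.47 in cyclophosphamide and -0.58 in saline rats, and miR-742-5p was higher, by 0.27 and 0.25. miR-883-5p was higher by 0.29 and 0.26, while miR-883-3p gave -0.14 and -0.19 and did not pass. miR-743a-5p, which shares the seed of the undetected miR-871-5p, was lower, at -0.47 and -0.55. Whether a list or arm differs from the 4 stems in its change was not tested.

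**Figure D4:**
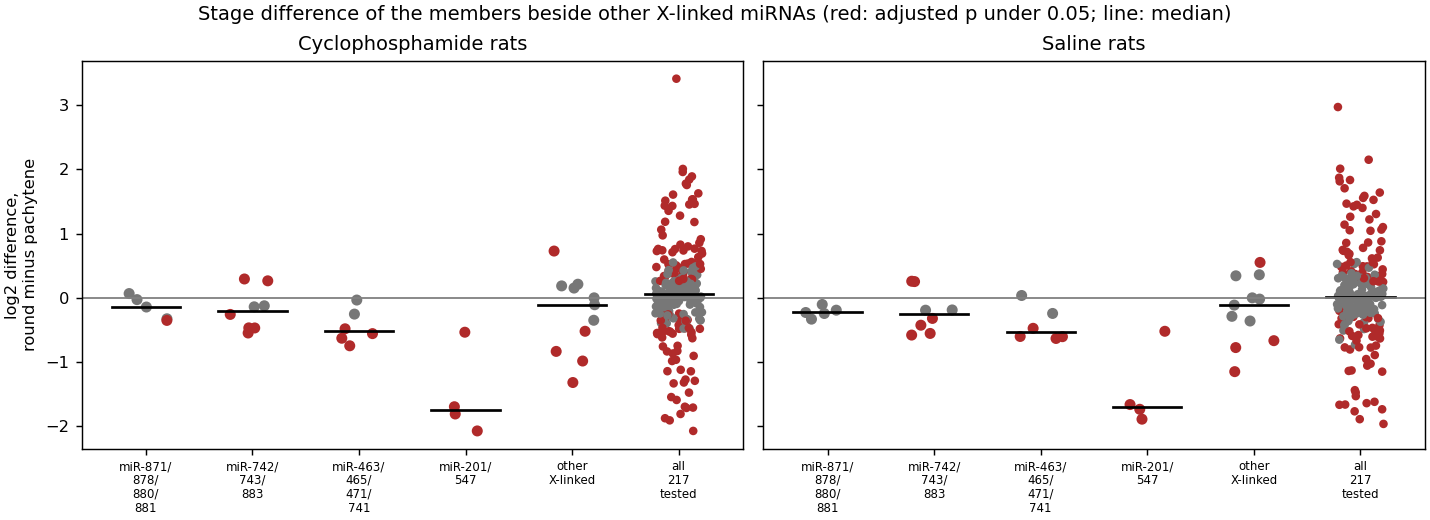
Log2 difference, round spermatids minus pachytene spermatocytes, of tested miRNAs in cyclophosphamide and saline rats, for the 5 tested members, 3 groups of neighbouring X-linked stems, other X-linked stems and all 217 tested miRNAs; red marks an adjusted p under 0.05 and the line the median. The members lie between -0.35 and 0.07, while the arms of miR-201 and miR-547 lie between -2.07 and -0.52.

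In the fit of all arrays no member passed the test between cyclophosphamide and saline rats in either cell type. In round spermatids 0 of the 217 miRNAs (0%) passed limma's test between CPA and SAL, with 4 at an unadjusted p under 0.05. In pachytene spermatocytes 0 of 217 (0%) passed, with 1 at an unadjusted p under 0.05. The difference of the drug effect between round spermatids and pachytene spermatocytes also gave 0 of 217 (0%), with 1 at an unadjusted p under 0.05. None of these few was a member.

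The intervals show what size of drug effect these arrays leave for the members. In round spermatids miR-880-3p differed most, by 0.27 ± 0.14 (95% interval -0.02 to 0.56, limma adjusted p = 0.823), with CPA at 7.82 to 8.29 and SAL at 7.14 to 8.09. Without the low SAL array of rat 16 it was 0.11, and within slide 2, which holds that array and 1 CPA round spermatid array, it was 0.68, a difference between 1 CPA and 1 SAL array with no spread of its own. miR-878 differed by 0.13 (95% interval -0.23 to 0.49), miR-881-5p by 0.09 (-0.08 to 0.27), miR-881-3p by -0.02 (-0.31 to 0.26) and miR-871-3p by -0.04 (-0.29 to 0.20). In pachytene spermatocytes miR-878 differed by 0.21 (-0.15 to 0.57), miR-871-3p by -0.13 (-0.37 to 0.12), miR-881-5p by 0.02 (-0.16 to 0.20), miR-880-3p by 0.01 (-0.28 to 0.31) and miR-881-3p by -0.01 (-0.29 to 0.28). The interval with the farthest end reached 0.57, so a change of that size in miR-878 is within what these arrays allow.

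**Figure D5:**
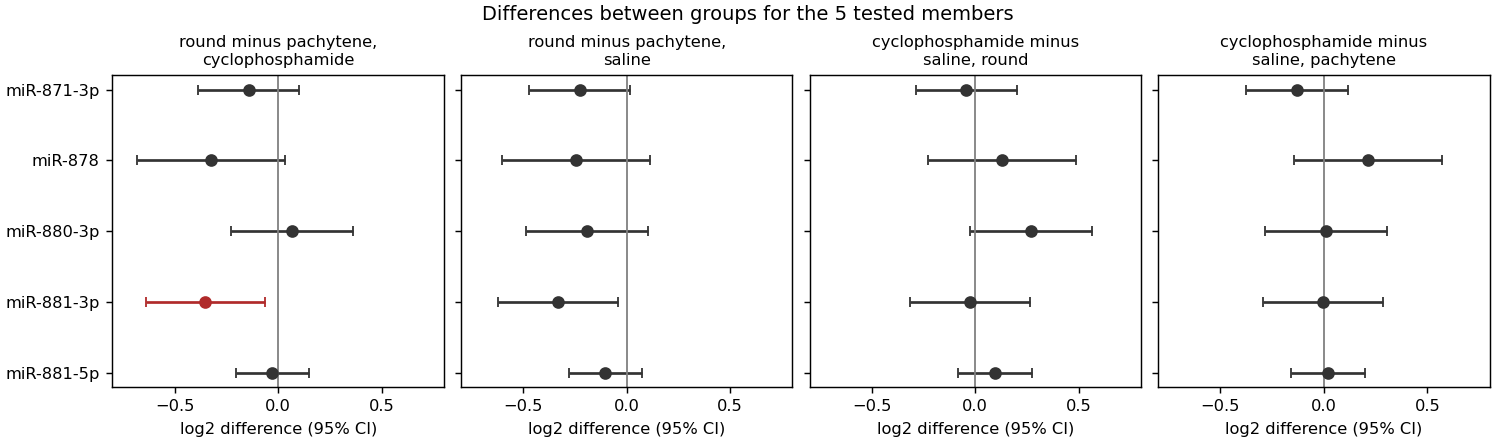
Log2 differences with 95% intervals for the 5 tested members, from left to right round spermatids minus pachytene spermatocytes in cyclophosphamide and in saline rats, and cyclophosphamide minus saline in round spermatids and in pachytene spermatocytes; red marks an adjusted p under 0.05. Only miR-881-3p in cyclophosphamide rats, at -0.35, is marked, and no drug effect is.

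The miRNAs most like each member were found by the root mean square difference over the 20 arrays, after each miRNA was centred on its own mean. Closest to miR-881-3p were miR-743a-3p at 0.14, miR-471-5p at 0.14 and miR-186-5p at 0.15, the first 2 from the same X-linked region. Closest to miR-878 were miR-186-5p at 0.19, miR-743a-3p at 0.20 and miR-30c-5p at 0.22, so that 2 of its 3 were also among those of miR-881-3p. miR-871-3p lay closest to miR-21-5p at 0.14, miR-883-3p at 0.17 and miR-30c-5p at 0.18. For miR-880-3p they were miR-93-5p at 0.14, miR-362-3p at 0.15 and miR-449a-5p at 0.16. Those of miR-881-5p were miR-192-5p, miR-219-5p and miR-210-3p, which like it lie at or near the floor, so that the measure reflects the floor. A miRNA that did not vary would lie at about the member's own SD over the 20 arrays. That SD was 0.20 for miR-871-3p, 0.31 for miR-878, 0.23 for miR-880-3p and 0.27 for miR-881-3p. A small distance alone therefore does not show a shared pattern, least of all for miR-871-3p. The points share the arrays, the scaling and the slides.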

How the data were processed

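Linear spot intensity was taken from the deposited scanner files. Per the file headers and the submitters' processing notes, Agilent Feature Extraction 11.5.1.1 wrote them, subtracting the background without scaling arrays to each other. The headers name the annotation build rn4. Each array's processed signal was scaled to its 75th percentile, taken over the 2176 spots well above background on all arrays, outlier spots were dropped, the spots of a probe averaged, a floor of 11.97 set and log2 taken. The deposited value table holds log2 values that the authors centred per miRNA, by steps not given in the sources used here; it was used as an alternative for miR-878, the 1 member whose name matched.

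limma 3.58.1 in R 4.3.3 fitted the 4 group means in 1 model. A miRNA at the floor on every array of a fit was given a difference of 0 and p of 1. The fit was tested on simulated data. No spot was saturated. The array of CPA round spermatid rat 14 holds its signal rounded to 3 digits. The number of arrays limits the precision. Slides were read from the file headers. Rat numbers in the labels are taken to mark separate rats, so p-values measure the spread between them as far as that holds.

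The members, lists, tests and rule for likeness (the 3 tested miRNAs outside the 4 stems with the smallest difference) were chosen with earlier results of these data known, so nothing in them is independent support. Alternatives were the scaling, background, probe, floor, filter, slide, scan date, rat number and each array left out.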

Additional observations from a re-analysis of the deposited data

Results flagged for a closer look

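In 3 of the 20 groups of 5 arrays examined (5 tested members in 4 groups), 1 array lay far from the other 4 by Dixon's test, where chance gives about 1 in 20. miR-871-3p stood at 5.91 on rat 7 in CPA pachytene spermatocytes, against 6.43 to 6.58 on the other 4. miR-881-5p stood at 4.00 on rat 16 in SAL pachytene spermatocytes, against 3.63 to 3.69 on the others. miR-881-5p stood at 3.77 on rat 15 in SAL round spermatids, where the other 4 were all at the floor of 3.58, so that the spread of the rest is set by the floor.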

How the results depend on the processing

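Over the alternatives other than leaving out single arrays, 20 calls of a member were gained and 9 were lost, all 9 being that of miR-881-3p for stage in cyclophosphamide rats. The gained calls include stage in saline rats for each of the 5 tested members. They also include stage in cyclophosphamide rats for miR-871-3p and miR-878, and drug in round spermatids for miR-880-3p. That drug value, 0.68, came from slide 2 alone, where 1 CPA array stood against 1 SAL array. Some came from fits of 1 slide, in which a group can hold 1 array. No value that changed sign was called under the alternative. Normexp and the other probe were added after the data were seen. The values below are log2 differences, stage meaning round spermatids minus pachytene spermatocytes and drug meaning cyclophosphamide minus saline. Normexp on mean signals was not run, since the files used here hold median signals, which were taken instead. It moved the median of all tested miRNAs to -0.05 and 0.44 for stage in cyclophosphamide and saline rats and to -0.16 and 0.34 for drug in round spermatids and pachytene spermatocytes, and the stage counts to 39 and 30. Under it the stage difference in saline rats was 0.12 for miR-871-3p, 0.43 for miR-878, 0.50 for miR-881-3p and 0.58 for miR-881-5p, the drug difference -0.17 for miR-878 and -0.20 for miR-881-5p in round spermatids and 0.18 for miR-871-3p and 0.43 for miR-881-3p in pachytene spermatocytes. Its pairs gave -0.0041 for miR-871-3p minus miR-878 in cyclophosphamide rats, and -0.31 for that pair, 0.19 for miR-871-3p minus miR-880-3p and 0.50 for miR-878 minus miR-880-3p in saline rats. No scaling moved the median for stage to -0.23 and -0.37 and for drug in pachytene spermatocytes to -0.13, and the stage count in cyclophosphamide rats to 73; miR-880-3p gave -0.34 for stage in cyclophosphamide rats and -0.15 for drug in pachytene spermatocytes, and miR-881-5p -0.15 there. Scaling over all spots, with medians of -0.07 and -0.16 for stage, gave -0.14 for miR-880-3p stage in cyclophosphamide rats, 0.0046 for miR-881-3p drug in round spermatids, and -0.047 and -0.040 for miR-880-3p and miR-881-5p drug in pachytene spermatocytes. Quantile normalization gave -0.046 for the last. Total signal gave -0.054, 0.030 and -0.065 for drug in pachytene spermatocytes for miR-880-3p, miR-881-3p and miR-881-5p, and 0.0013 for miR-871-3p minus miR-880-3p in saline rats. The mean over probes gave -0.091, 0.012 and 0.10 for the 3 saline pairs in the order above. A floor at 2 times set both miR-881 arms to 0 and gave -0.00465 for miR-878 drug in round spermatids. The other probe gave -0.046 and -0.0078 for miR-880-3p stage in cyclophosphamide rats and drug in pachytene spermatocytes.

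By slide, beyond the values of the report, the block gave -0.056 for miR-880-3p stage in cyclophosphamide rats and 0.046 for miR-881-3p drug in round spermatids. Slide 1 alone gave stage counts of 71 and 56, values of 0.080, 0.093 and 0.021 for miR-871-3p, miR-878 and miR-881-5p in cyclophosphamide and 0.085 and 0.041 for miR-878 and miR-880-3p in saline rats, and for drug -0.011 and -0.063 in round spermatids and -0.038 and -0.14 in pachytene spermatocytes for miR-880-3p and miR-881-5p. Slide 2 alone gave 30 calls for drug in round spermatids and 27 for the difference of drug effects, which set 1 CPA against 1 SAL round spermatid array with a spread taken from the pachytene arrays, -0.12 and 0.086 for miR-880-3p and miR-881-5p stage in cyclophosphamide rats, and for drug -0.22 for miR-878 and 0.12 for miR-881-3p in round spermatids and 0.0082 for miR-871-3p and 0.050 for miR-881-3p in pachytene spermatocytes. Without slide 3 miR-881-5p stage gave 0.0055 in cyclophosphamide rats, miR-878 drug -0.012 in round spermatids, and the saline pairs -0.065, 0.21 and 0.28. Scan date as a block changed no call of a member. The labels do not state whether an equal rat number in both cell types marks the same rat. Over 3 saline numbers the arrays' deviations correlated at -0.29 to 0.16 and over 1 cyclophosphamide number at 0.12. Arrays with unequal numbers correlated at -0.33 to 0.35, so these correlations cannot decide it. The replicate block, with a correlation of 0.08, gave 115 and 106 stage calls and 0 for each drug comparison, changed no member's call and turned miR-880-3p drug in pachytene spermatocytes to -0.0029. In the authors' deposited table miR-878 had a stage value of -0.44 and -0.55 in cyclophosphamide and saline rats. Without 1 array in turn the count of unequal pairs was 0 to 1, the saline pairs ranged -0.10 to 0.12, -0.21 to 0.064 and -0.30 to 0.066, miR-881-5p stage in cyclophosphamide rats -0.075 to 0.0055, drug in round spermatids -0.11 to 0.0044 for miR-871-3p and -0.10 to 0.039 for miR-881-3p, and drug in pachytene spermatocytes -0.011 to 0.039 for miR-880-3p, -0.067 to 0.073 for miR-881-3p and -0.0055 to 0.088 for miR-881-5p. Stage counts stayed at 100 to 119 and 94 to 112. The cause of these changes was not tested. The 2 dimmest arms lie near the floor, which limits any change they can show.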
